A study of Mus musculus with 9 samples.

Results

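The Ms4a family is represented here by 9 genes, Ms4a3, Ms4a4a, Ms4a4b, Ms4a4c, Ms4a6b, Ms4a6c, Ms4a6d, Ms4a7 and Ms4a8a, of 19 annotated Ms4a genes and 55487 genes in all. They were chosen by gene symbol, and all 9 were found and passed the filter on low counts. Their RNA was counted by RNA-seq in 3 groups of 3 libraries of monocytes sorted from the spleens of untreated C57BL/6 mice. The wild type (WT) gave classical (Ly6Chi) and nonclassical (Ly6Clo) monocytes. The last group is Ly6Clo monocytes of mice that lack the Cebpa +37 element on both alleles (Cebpa +37-/-, here KO), and Ly6Chi monocytes of the KO were not analysed here. The element is an enhancer of Cebpa, whose product C/EBP-alpha directs granulocyte and monocyte development. Age, sex and the bounds of the deletion are not given in the labels, and neither is whether each replicate is its own animal, so p-values measure only the spread between libraries, possibly technical.

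Ms4a genes encode small membrane proteins with 4 membrane-spanning segments and short cytoplasmic ends, most of them in 1 gene cluster. The founding members were found as CD20 on B cells (Ms4a1), the beta chain of the high-affinity IgE receptor on mast cells and basophils (Ms4a2) and HTm4 of haematopoietic progenitors (Ms4a3). Several others are known from monocytes, macrophages and T cells, where they sit beside immune receptors in the membrane and affect signalling, receptor traffic and the cell cycle.

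Library totals were between 48141590 and 173703361 counts, so 3 counts equal 0.0173 to 0.0623 CPM, that is, counts scaled to the library total. Levels of genes and marker lists in CPM, here and below, are instead on library sizes scaled by TMM. The sort labels were matched by marker RNA. The summed level of 10 classical monocyte genes was 9099 to 12715 CPM in WT Ly6Chi, 449 to 557 in WT Ly6Clo libraries and 311 to 651 in KO Ly6Clo. The 10 nonclassical genes summed to 1319, 5796 and 6188 CPM in WT Ly6Chi, 11294 to 20667 in WT Ly6Clo libraries and 8361 to 14600 in KO Ly6Clo. Cebpa itself was at 31.5, 51.3 and 51.6 CPM in WT Ly6Chi, 18.2, 17.7 and 19.2 CPM in WT Ly6Clo libraries and 4.04, 2.89 and 2.74 CPM in KO Ly6Clo. WT Ly6Chi replicate 3 stood apart by its sex-linked genes, with the female pattern of Xist at 30.0 CPM and Ddx3y at 0. The other libraries had the male pattern, with Xist at 0 to 0.0417 CPM and Ddx3y at 69.4 to 142 CPM. Values without WT Ly6Chi replicate 3 are given beside the results it changes.

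All 9 members lie on chromosome 19 within the Ms4a cluster (chr19:10962293-11640851 in GRCm38, 679 kb, 35 annotated genes of which 19 are Ms4a genes), 5 on the plus strand and 4 on the minus strand. Some members are near-copies of each other. The coding sequences of Ms4a4b and Ms4a4c are 91.7% identical over an alignment of 678 columns, those of Ms4a6b and Ms4a6d 80.1%, and those of Ms4a6b and Ms4a6c 74.7%. Ms4a4a, by contrast, is 59.6% identical to Ms4a4b.

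The promoters below, from RefSeq on GRCm38.p6, run from 250 bases before to 50 bases after each transcription start, read on the gene's own strand. Of the 9 members, 8 matched this table (Ms4a6d was not matched). The 6 windows printed here were chosen because they pair near-copies (Ms4a4c with Ms4a4b, and Ms4a6b with Ms4a6c), and because Ms4a8a and Ms4a3 had the largest differences between the subsets. Capitals mark matches, on either strand, to 5 short motifs: the ETS core GGAAGT, the C/EBP motif TTGCNNAA, the NR4A motif AAAGGTCA, the IRF motif GAAANNGAA and the RUNX motif TGTGGT.
The windows are, in GRCm38.p6, chr19:11407411-11407710 for Ms4a4c, chr19:11443308-11443607 for Ms4a4b, chr19:11518309-11518608 for Ms4a6b and chr19:11469118-11469417 for Ms4a6c, all on the plus strand, and chr19:11081054-11081353 for Ms4a8a and chr19:11640802-11641101 for Ms4a3, both on the minus strand.
Ms4a4c: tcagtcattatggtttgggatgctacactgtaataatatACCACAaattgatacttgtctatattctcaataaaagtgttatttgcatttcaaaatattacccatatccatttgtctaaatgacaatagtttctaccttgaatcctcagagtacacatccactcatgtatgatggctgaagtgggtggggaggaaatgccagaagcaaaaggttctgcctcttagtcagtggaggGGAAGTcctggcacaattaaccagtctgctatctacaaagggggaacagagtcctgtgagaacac
Ms4a4b: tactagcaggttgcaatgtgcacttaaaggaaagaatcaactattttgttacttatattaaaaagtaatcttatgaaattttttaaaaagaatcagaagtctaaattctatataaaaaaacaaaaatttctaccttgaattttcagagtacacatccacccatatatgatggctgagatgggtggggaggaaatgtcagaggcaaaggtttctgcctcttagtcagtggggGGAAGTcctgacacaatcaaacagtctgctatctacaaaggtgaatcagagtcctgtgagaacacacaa
Ms4a6b: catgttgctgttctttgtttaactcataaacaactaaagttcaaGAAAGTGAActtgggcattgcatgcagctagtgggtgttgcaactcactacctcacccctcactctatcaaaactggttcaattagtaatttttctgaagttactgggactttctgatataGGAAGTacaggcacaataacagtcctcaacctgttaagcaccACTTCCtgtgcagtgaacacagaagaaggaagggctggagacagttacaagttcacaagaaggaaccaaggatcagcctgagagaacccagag
Ms4a6c: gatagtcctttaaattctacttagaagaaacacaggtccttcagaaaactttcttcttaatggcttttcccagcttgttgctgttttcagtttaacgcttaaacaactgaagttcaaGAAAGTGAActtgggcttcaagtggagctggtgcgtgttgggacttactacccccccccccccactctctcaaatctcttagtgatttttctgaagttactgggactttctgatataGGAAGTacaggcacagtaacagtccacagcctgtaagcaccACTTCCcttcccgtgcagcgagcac
Ms4a8a: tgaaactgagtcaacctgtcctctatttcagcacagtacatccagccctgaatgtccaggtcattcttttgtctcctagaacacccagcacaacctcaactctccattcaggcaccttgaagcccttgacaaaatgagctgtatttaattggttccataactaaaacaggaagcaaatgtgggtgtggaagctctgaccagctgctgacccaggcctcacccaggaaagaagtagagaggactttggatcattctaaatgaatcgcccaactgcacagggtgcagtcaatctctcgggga
Ms4a3: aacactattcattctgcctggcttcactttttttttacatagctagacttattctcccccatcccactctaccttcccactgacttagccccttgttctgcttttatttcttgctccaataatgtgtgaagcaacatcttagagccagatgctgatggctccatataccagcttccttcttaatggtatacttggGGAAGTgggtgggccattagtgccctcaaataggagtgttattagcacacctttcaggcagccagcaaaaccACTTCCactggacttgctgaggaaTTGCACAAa

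Aligned over their whole length, the Ms4a4c and Ms4a4b windows were 72.1% identical, against 44.3% to 51.2% for the other pairs of members. The highest of these, 51.2%, was for Ms4a6b and Ms4a6c. Those 2 windows share stretches set at different distances from their starts, so the whole-window value understates their likeness. Both hold the ETS core close to the start, 15 bases before it in Ms4a4c and 19 bases before it in Ms4a4b, and the RUNX match, 211 bases before the start, is in the Ms4a4c window only. Ms4a6b and Ms4a6c share the letters GAAAGTGAA of the IRF motif, 206 and 133 bases before their starts, followed by the ETS core on each strand (85 and 43 bases before the start in Ms4a6b, 16 before and 25 after it in Ms4a6c). Ms4a3 holds the ETS core on each strand and the only C/EBP match among the windows searched, TTGCACAA, 41 bases after the start. The Ms4a8a and Ms4a4a windows hold none of the 5 motifs.

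Across the 9 promoter windows of the 8 matched members (Ms4a7 has 2), the ETS core was found in 6, the IRF motif in 4 windows of 3 genes, the C/EBP and RUNX motifs in 1 each and the NR4A motif in 0. Of 32851 promoters of the same length, 23.8% hold the ETS core, 10.8% the C/EBP motif, 1.51% the NR4A motif, 8.56% the IRF motif and 16.8% the RUNX motif. A match describes the letters only, and windows of near-copies share their sequence.

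Within Ly6Chi monocytes of the WT, Ms4a4c and Ms4a4a were the most abundant members on the deposited TPM scale, which divides by annotated exon length. The order thus depends on those lengths, for example 836 bases for Ms4a4a and 4485 for Ms4a6b. By CPM, Ms4a6b stood above Ms4a4a in WT Ly6Chi (657 against 266) and WT Ly6Clo (227 against 173). In KO Ly6Clo it did not (233 against 260). Ms4a4c stood at 1012 ± 275 TPM (SD, n = 3) and Ms4a4a at 972 ± 232 TPM, followed by Ms4a6c at 549 ± 153, Ms4a6b at 447 ± 70.6, Ms4a6d at 239 ± 101, Ms4a8a at 86.1 ± 17.6, Ms4a4b at 24.7 ± 2.32, Ms4a7 at 5.48 ± 0.142 and Ms4a3 at 2.48 ± 1.01 TPM. The library ranges of neighbours among the first 4 overlapped, Ms4a4c with Ms4a4a, Ms4a4a with Ms4a6c and Ms4a6c with Ms4a6b, and the ranges from Ms4a6b downwards did not overlap.

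In WT Ly6Clo monocytes the order changed. Ms4a4a was alone at the top at 635 ± 140 TPM, apart from Ms4a6c at 238 ± 77.8 TPM, and Ms4a4c came after Ms4a6b at 156 ± 35.3 TPM, overlapping with it (157 ± 35.4 TPM). Ms4a6d (57.3 ± 20.9 TPM), Ms4a4b (15.7 ± 2.16), Ms4a8a (4.07 ± 2.44), Ms4a7 (1.69 ± 0.491) and Ms4a3 (0.0312 ± 0.00108) followed without overlap, so Ms4a4b stood above Ms4a8a here and below it in Ly6Chi. KO Ly6Clo monocytes kept Ms4a4a at the top (1020 ± 651 TPM) and Ms4a6c next (317 ± 111 TPM), with Ms4a4c (225 ± 107), Ms4a6b (171 ± 84.2) and Ms4a6d (135 ± 79.8) overlapping in turn.

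The share of each member in the summed TPM of the 9 members shows this change of make-up. Ms4a4a made up 29.2 ± 4.03% of the family total in WT Ly6Chi (26.2% to 33.8%), 50.4 ± 6.94% in WT Ly6Clo (44.3% to 57.9%) and 51.9 ± 5.89% in KO Ly6Clo (45.6% to 57.2%). Ms4a4c made up 30.3 ± 2.60%, 12.4 ± 2.10% and 12.3 ± 1.29%. Ms4a6d made up 6.99 ± 1.22% in WT Ly6Chi, 4.44 ± 0.641% in WT Ly6Clo libraries and 6.98 ± 0.473% in KO Ly6Clo, and its highest share in WT Ly6Clo (5.18%) lay under its lowest in KO Ly6Clo (6.44%). These shares are descriptions without a test, they depend on the annotated gene lengths, and a rise of one share lowers the others. The summed TPM was 4249, 2753 and 3012 in WT Ly6Chi, 1571, 1119 and 1104 in WT Ly6Clo libraries, and 3029, 1636 and 1009 in KO Ly6Clo replicates 1 to 3.

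**Figure D1:**
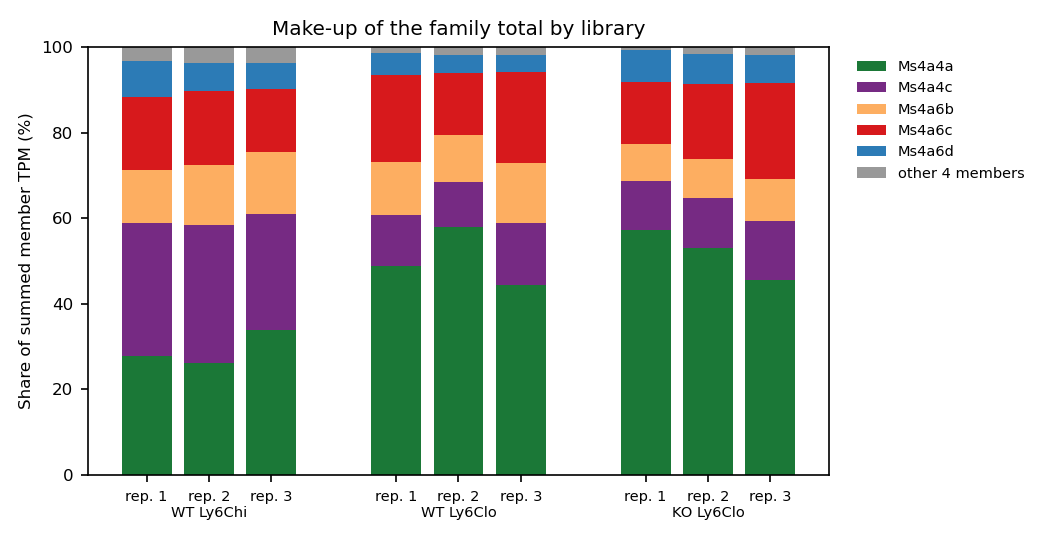
Stacked bars give the share (%) of each member in the summed TPM of the 9 Ms4a members, 1 bar per library, in 3 groups of 3 libraries. Ms4a4a (green) takes 26.2% to 33.8% in WT Ly6Chi and 44.3% to 57.9% in both Ly6Clo groups, while Ms4a4c (purple) averages 30.3% in WT Ly6Chi and 12.4% and 12.3% in the Ly6Clo groups.

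The first comparison asked how the family differs between the 2 monocyte subsets of the WT. All 9 members had a negative log2 fold change in Ly6Clo against Ly6Chi, and 5 of them (Ms4a3, Ms4a4c, Ms4a6b, Ms4a7 and Ms4a8a) were called lower by the quasi-likelihood test of edgeR (Benjamini-Hochberg adjusted p under 0.05). No member was called higher. Over all 18341 genes tested, 3.51% were called, 1.62% lower and 1.88% higher. The median log2 fold change was -1.71 over the members and 0.00 over all genes. In 8 of the 9 members every Ly6Clo library lay under every Ly6Chi library, which held for 14.7% of all genes, and 7 of 9 had an unadjusted p under 0.05, against 18.2% of all genes. Ms4a3, which is in each of these member counts, passed the filter on low counts only through WT Ly6Chi, where it is high. The filter thus favoured its being lower in WT Ly6Clo. In bulk samples, fewer cells of a type and less RNA per cell cannot be told apart.

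The summed neutrophil markers were also lower in WT Ly6Clo, with 5 of the 9 called (S100a8, S100a9, Ltf, Ngp and Camp), with sums of 582, 1190 and 812 CPM in WT Ly6Chi, of 362, 450 and 465 CPM among WT Ly6Clo and of 172, 281 and 361 CPM among KO Ly6Clo libraries. S100a8, a calcium-binding protein gene that classical monocytes also express, was at 134, 137 and 69.2 CPM in WT Ly6Chi and 0.0917, 0.577 and 1.79 CPM in WT Ly6Clo libraries. Ltf, the lactoferrin gene of neutrophil granules, was at 20.9, 121 and 55.0 CPM and at 0, 0.0199 and 0 CPM. The neutrophil surface marker Ly6g was at 0.0204 to 0.411 CPM in WT Ly6Chi and 0.153 to 0.275 CPM in WT Ly6Clo libraries, and Csf3r at 297 to 473 and 356 to 459 CPM. Csf3r, at 170 to 328 CPM in KO Ly6Clo, made up most of the sums in both Ly6Clo groups. In KO against WT Ly6Clo, 7 of the 9 markers had a positive log2 fold change and 2 a negative one, Csf3r among these. There edgeR called none of the 9, against 0.0709% of all genes. The part of neutrophil RNA in the differences of the members was not tested. Conventional dendritic cell markers, 9 genes, summed to 207 to 449 CPM in WT Ly6Chi libraries. Their sums were 211 to 348 CPM among WT Ly6Clo and 256 to 755 among KO Ly6Clo libraries. These sums hide opposite differences between the genotypes. Dpp4 (log2 fold change 1.94) and Zbtb46 (0.99) were higher in KO Ly6Clo without overlap. Cd209a (-4.42) and Clec10a (-1.32) were lower without overlap, and edgeR called none of the 9.

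Ms4a4c (ENSMUSG00000024675, chr19:11404770-11427246), a member best known from monocytes and interferon-exposed leukocytes, fell with the smallest adjusted p of the members. Its level, in CPM on TMM-scaled library sizes, was 750, 515 and 475 in WT Ly6Chi replicates 1 to 3 and 103, 72.1 and 88.9 in WT Ly6Clo. The lowest Ly6Chi library thus held several times the highest Ly6Clo library. The means were 580 ± 149 and 88.2 ± 15.7 CPM (SD, n = 3), a log2 fold change of -2.72 (SE 0.36 and edgeR adjusted p = 0.0054), a 6.58-fold difference.

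Ms4a4b (ENSMUSG00000056290, chr19:11443553-11467055), the near-copy beside it, is known from T cells, where it restrains proliferation. It stood at 75.7, 64.5 and 73.0 CPM in WT Ly6Chi and 36.6, 52.1 and 46.7 CPM in WT Ly6Clo. The groups did not overlap, yet the difference was not called (71.1 ± 5.87 against 45.1 ± 7.86 CPM, n = 3, log2 fold change -0.65, SE 0.35 and edgeR adjusted p = 0.37). The ratio of Ms4a4c to Ms4a4b CPM, compared after the values were seen, was 9.91, 7.98 and 6.50 in WT Ly6Chi and 2.83, 1.39 and 1.90 in WT Ly6Clo. On the log2 scale the mean ratio differed by -2.04 between the subsets, without overlap, with a two-sided exact permutation p of 0.1, the smallest that 3 against 3 libraries allow. In KO Ly6Clo the ratio was 10.1, 1.87 and 1.85, so that replicate 1 lay above all WT Ly6Chi libraries, and the mean log2 ratio differed by -1.30 from WT Ly6Chi (exact permutation p = 0.4) and by 0.74 from WT Ly6Clo (p = 0.7, 3 comparisons in all). Of 50-base windows of Ms4a4c exons, 7.73% also occur in Ms4a4b, so a small part of their reads could have been assigned to either.

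Ms4a4a (ENSMUSG00000101389, chr19:11375523-11392790), known from macrophages, where it associates with the beta-glucan receptor Dectin-1, was the member whose subsets overlapped. Its level was 318, 200 and 280 CPM in WT Ly6Chi and 202, 189 and 128 CPM in WT Ly6Clo. The means of 266 ± 60.4 and 173 ± 39.5 CPM (n = 3) gave a log2 fold change of -0.62 (SE 0.43 and edgeR adjusted p = 0.5).

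The Ms4a6 genes, described mostly in monocytes and macrophages, differed between the subsets to unequal degrees. Ms4a6b (ENSMUSG00000024677, chr19:11516512-11531256) was at 759, 573 and 639 CPM in WT Ly6Chi and 273, 193 and 216 CPM in WT Ly6Clo. It fell from 657 ± 94.5 to 227 ± 41.6 CPM (n = 3, log2 fold change -1.53, SE 0.33 and edgeR adjusted p = 0.042). Its groups were well separated.
Ms4a6d (ENSMUSG00000024679, chr19:11586604-11604849) was at 199, 103 and 104 CPM in WT Ly6Chi and 44.4, 27.8 and 24.3 CPM in WT Ly6Clo. Replicate 1 was the highest library in each group, and the groups did not overlap. With means of 136 ± 55.0 and 32.2 ± 10.8 CPM (n = 3) its log2 fold change was -2.08 (SE 0.48), just over the threshold at an edgeR adjusted p of 0.051, and so it was not called.

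Ms4a6c (ENSMUSG00000079419, chr19:11469366-11482192) was at 480, 323 and 301 CPM in WT Ly6Chi and 205, 116 and 150 CPM in WT Ly6Clo. The groups did not overlap, and the difference from 368 ± 97.6 to 157 ± 44.8 CPM (n = 3, log2 fold change -1.23, SE 0.32 and edgeR adjusted p = 0.072) was not called. The gene BE692007 on the opposite strand covers 53.1% of the exonic bases of Ms4a6c. It was at 75.8, 30.8 and 31.0 CPM in WT Ly6Chi and 41.6, 14.4 and 16.4 CPM in WT Ly6Clo. Strand use in counting is not stated in the labels or headers, so the split of reads between Ms4a6c and BE692007 is uncertain.

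Ms4a8a (ENSMUSG00000024730, chr19:11067471-11081102), described in macrophages under anti-inflammatory conditions, had the largest fall among the members above 5 CPM. It was at 61.7, 44.7 and 45.5 CPM in WT Ly6Chi and 3.89, 1.67 and 1.49 CPM in WT Ly6Clo. The mean fell from 50.6 ± 9.60 to 2.35 ± 1.34 CPM (n = 3, log2 fold change -4.43, SE 0.83 and edgeR adjusted p = 0.023), a 21.6-fold difference. The 3 Ly6Chi libraries lay far above all Ly6Clo libraries, whose counts of 212, 252 and 78 were still well above the 3-count floor.

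Ms4a7 (ENSMUSG00000024672, chr19:11321039-11336146), a member known from macrophages, was scarce in both subsets. Its levels of 7.90, 8.28 and 7.82 CPM in WT Ly6Chi were close to each other, and those in WT Ly6Clo were 3.04, 2.63 and 1.66 CPM. It fell from 8.0 ± 0.245 to 2.45 ± 0.710 CPM (n = 3, log2 fold change -1.71, SE 0.39 and edgeR adjusted p = 0.049).

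Ms4a3 (ENSMUSG00000024681, chr19:11629496-11640851), a marker of granulocyte-monocyte progenitors that binds the phosphatase encoded by Cdkn3, was near the floor outside Ly6Chi. It was at 0.858, 1.63 and 2.12 CPM in WT Ly6Chi (48, 78 and 104 counts) and at 0.0183, 0.0199 and 0.0191 CPM in WT Ly6Clo (1, 3 and 1 counts). The log2 fold change of -6.20 (SE 1.39 and edgeR adjusted p = 0.047) thus rests on 5 counts in WT Ly6Clo against 230 in WT Ly6Chi. Of the 8 progenitor genes, Mpo, Elane, Prtn3 and Ctsg were lower in WT Ly6Clo without overlap and the other 4 overlapped; Prtn3 alone was called. Mpo was at 27.4, 16.6 and 10.4 CPM in WT Ly6Chi and at 0.202, 6.10 and 1.47 CPM in WT Ly6Clo libraries, and Elane, the neutrophil elastase gene, at 30.8, 13.4 and 8.70 against 0.367, 0 and 0 CPM. Kit, a progenitor receptor gene, was instead at 2.59 ± 2.22 CPM in WT Ly6Chi and 14.3 ± 9.62 CPM in WT Ly6Clo libraries, Cd34 at 2.21 ± 0.416 and 4.38 ± 2.29, and Myb at 4.11 ± 2.08 and 3.92 ± 4.81 CPM (n = 3 each). Within WT Ly6Chi the order of Ms4a3 was opposite to that of Mpo and Elane, since replicate 1 had the most Mpo and Elane and the least Ms4a3. The 8 progenitor genes summed to 102 to 159 CPM in WT Ly6Chi, 7.99 to 84.6 in WT Ly6Clo libraries and 21.9 to 147 in KO Ly6Clo, and their part in the Ms4a3 result was not tested.

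Ms4a4c was called in all 17 alternative analyses (adjusted p from 3.9e-12 to 0.032), while the other 4 calls were lost when any one of the 6 WT libraries was left out, with edgeR adjusted p from 0.057 to 0.1 for Ms4a8a, 0.092 to 0.15 for Ms4a6b, 0.11 to 0.16 for Ms4a7 and 0.092 to 0.16 for Ms4a3. Without WT Ly6Chi replicate 3, the library that stands apart, these values were 0.059, 0.1, 0.12 and 0.13. KO replicate 2 is not among the libraries compared. Without it, the adjusted p was 0.066 for Ms4a6b, 0.064 for Ms4a7 and 0.05 (before rounding above the threshold) for Ms4a3. Without KO replicate 3, the adjusted p was 0.081 for Ms4a7. Filter and scaling were redone whenever a library was left out, so the genes tested changed as well (20200 without KO replicate 2, against 18341). Ms4a6d was called without KO replicate 1 (0.025) or 3 (0.033), and Ms4a6c without KO replicate 1 (0.045). DESeq2 (adjusted p = 0.00029 and 0.0044), limma-voom (0.038 and 0.048) and edgeR without a filter (0.0068 and 0.041) also called Ms4a6d and Ms4a6c. The filter of 1 CPM in 3 libraries (0.037) and the fit of the 2 groups compared (0.023) called Ms4a6d but not Ms4a6c. Of the 17 alternatives, 9 called Ms4a6d and 6 called Ms4a6c, against 11 for Ms4a8a, 10 for Ms4a6b and 7 for Ms4a7. Ms4a3 was called in 7 of the 16 that kept it. With the replicate number as a block, Ms4a3 was not called (adjusted p = 0.06), whereas Ms4a6d (0.0068) and Ms4a6c (0.013) were. With a term for the run of library numbers, Ms4a3 (0.078) and Ms4a7 (0.068) were not called, and Ms4a6c (0.046) and Ms4a6d (0.011) were. With no filter on low counts, Ms4a7 was not called (0.13). The libraries fall in 2 runs of library numbers, and on the log2(CPM + 1) scale all 9 members were lower in Ly6Clo in each run, with differences from -4.12 (Ms4a8a) to -0.70 (Ms4a4a) in the first and from -4.21 (Ms4a8a) to -0.54 (Ms4a4b) in the second.

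**Figure D2:**
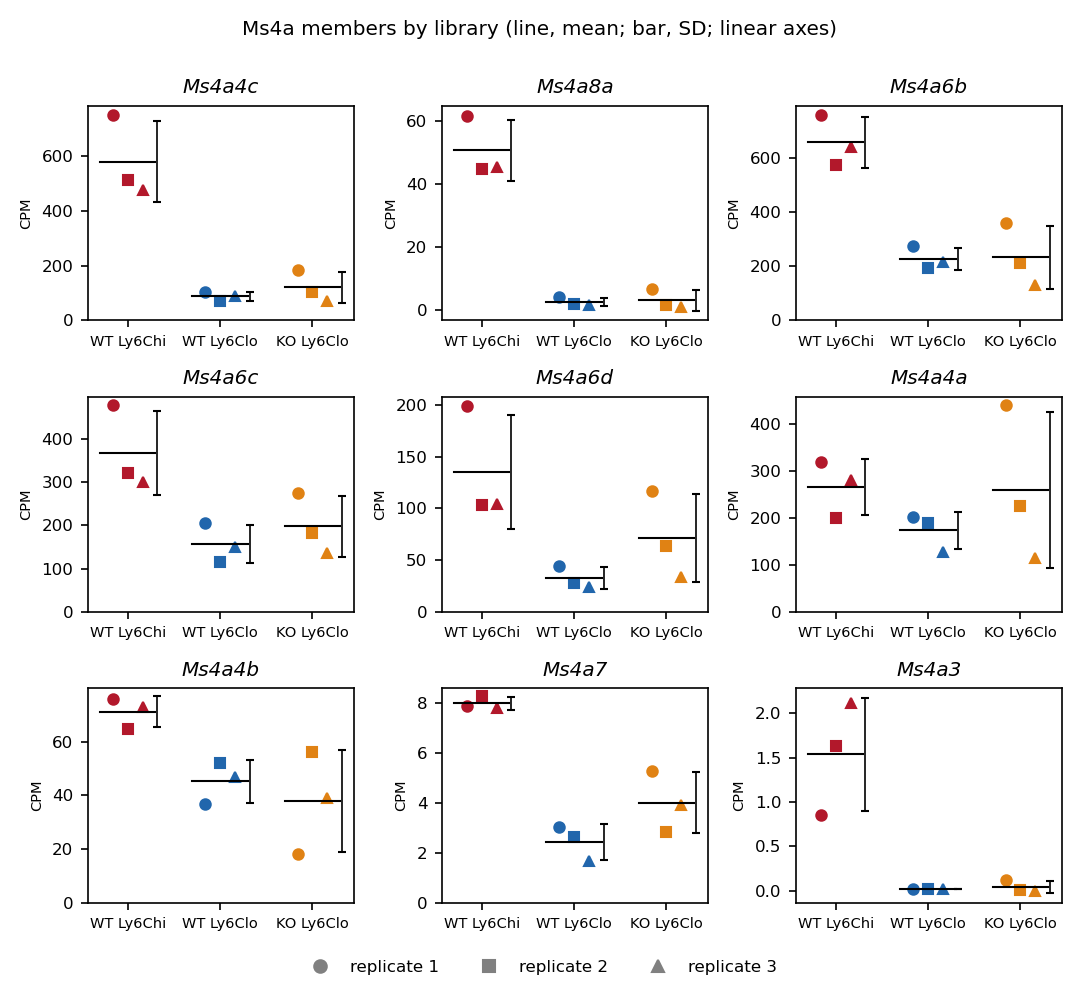
Each panel plots 1 Ms4a member in CPM (TMM-scaled library sizes, linear axis), with 1 symbol per library in WT Ly6Chi, WT Ly6Clo and KO Ly6Clo, a line at the group mean and a bar for the SD (n = 3). The Ly6Clo libraries lie under the WT Ly6Chi libraries for Ms4a4c, Ms4a8a and Ms4a6b in both genotypes, and the groups overlap for Ms4a4a.

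The second comparison asked what loss of the +37 element changed within Ly6Clo monocytes. No member was called by edgeR, nor by DESeq2 or limma-voom, where 0.0709%, 1.55% and 0.0872% of all genes tested were called by the 3 tools. By unadjusted p under 0.05 only Ms4a6d passed, 1 of 9 members, against 6.16% of all genes (Ms4a6d alone by DESeq2, against 8.30% of all genes, and 0 members by limma-voom, against 7.76%). Ms4a6d no longer passed when any 1 of WT Ly6Clo replicates 2 and 3 and KO replicates 1 and 2 was left out. Without KO replicate 3, 3 members passed (Ms4a4a, Ms4a4c and Ms4a6d), and without KO replicate 1 only Ms4a8a did, with a negative log2 fold change. The groups overlapped for all 9 members, while 5.22% of all genes were higher and 5.70% lower in KO without overlap. The log2 fold change was positive for 8 members and negative for Ms4a4b, with a median of 0.45 over the members and 0.03 over all genes. WT Ly6Clo serves here and in the first comparison, so the values of the 2 comparisons are not independent.

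Ms4a6d had the highest log2 fold change of the 9 members. It stood at 117, 63.3 and 33.3 CPM in KO Ly6Clo replicates 1 to 3, beside 44.4, 27.8 and 24.3 CPM in WT Ly6Clo. Replicates 1 and 2 of the KO lay above all WT libraries and replicate 3 lay among them. The means were 71.2 ± 42.3 and 32.2 ± 10.8 CPM (n = 3, log2 fold change 1.15, SE 0.46 and edgeR adjusted p = 0.75), and over the 17 alternatives the log2 fold change was between 0.58 and 1.48, the lowest without KO replicate 1.

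Ms4a7 was at 5.28, 2.83 and 3.93 CPM in KO Ly6Clo, with only replicate 2 inside the WT range. Its log2 fold change was 0.71 (SE 0.38 and edgeR adjusted p = 0.92; 4.01 ± 1.22 against 2.45 ± 0.710 CPM, n = 3). Ms4a6d and Ms4a7 were the members that were higher in KO in both runs of library numbers, by 1.27 and 0.44 for Ms4a6d and by 0.36 and 0.89 for Ms4a7 on the log2(CPM + 1) scale, with 1 library of each genotype in the second run.

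Ms4a4a had the largest SD in CPM of the members in KO Ly6Clo (166), at 440, 225 and 114 CPM in replicates 1 to 3. Replicates 1 and 2 exceeded and replicate 3 fell short of all 3 WT Ly6Clo libraries, and the log2 fold change was 0.59 (SE 0.43 and edgeR adjusted p = 1). Ms4a4c was at 184, 105 and 72.1 CPM (120 ± 57.3, n = 3, log2 fold change 0.45, SE 0.33), Ms4a6b at 359, 210 and 131 CPM (233 ± 116, log2 fold change 0.04, SE 0.33) and Ms4a6c at 275, 182 and 137 CPM (198 ± 70.2, log2 fold change 0.33, SE 0.31). In each of these, replicate 1 was the highest and replicate 3 the lowest KO library.

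Ms4a8a was at 6.70, 1.35 and 0.772 CPM in KO Ly6Clo (2.94 ± 3.27, n = 3, log2 fold change 0.32, SE 0.73), again highest in replicate 1. Ms4a4b ran the other way, at 18.3, 56.1 and 38.9 CPM (37.7 ± 18.9, n = 3, log2 fold change -0.26, SE 0.35), with replicate 1 the lowest. Ms4a3 had 8, 1 and 0 counts in KO Ly6Clo against 1, 3 and 1 in WT Ly6Clo libraries, too few for a fold to be read. Each of these edgeR adjusted p values was 1.

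KO replicate 1 was the highest KO library for 8 of the 9 members, and replicate 1 also for 7 of 9 in each WT group. Without KO replicate 1 the log2 fold change turned sign for 6 members, to -1.77 for Ms4a3, -0.04 for Ms4a4a, 0.06 for Ms4a4b, -0.01 for Ms4a4c, -0.42 for Ms4a6b and -1.14 for Ms4a8a. The first replicates held the lowest summed levels of T cell and NK cell markers in each group: 109, 66.7 and 34.7 CPM of T cell markers in WT Ly6Chi, WT Ly6Clo and KO Ly6Clo, against 120 to 201 CPM in the other libraries, and 25.1, 62.9 and 17.6 CPM of NK cell markers, against 54.0 to 339 CPM. Their part in the levels of the members was not tested.

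The third comparison set KO Ly6Clo against WT Ly6Chi monocytes, which differ in subset and genotype together, so that the effects of these cannot be told apart. It shares its libraries with the first 2 comparisons. Ms4a4c, Ms4a6b and Ms4a8a were called lower, 3 of 9 members, and none higher, where 4.52% of all genes were called, 2.46% lower and 2.06% higher. All 9 log2 fold changes were negative, with a median of -1.0 against 0.04 over all genes. The groups did not overlap for 7 members (11.7% of all genes were lower without overlap), and 7 of 9 had an unadjusted p under 0.05, against 16.9% of all genes. Both counts include Ms4a3, which passed the filter on low counts only through WT Ly6Chi, so the filter favoured its being lower here.

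With the library values given above, Ms4a8a fell from 50.6 ± 9.60 to 2.94 ± 3.27 CPM (n = 3, log2 fold change -4.11, SE 0.81 and edgeR adjusted p = 0.025). Ms4a4c fell from 580 ± 149 to 120 ± 57.3 CPM (n = 3, log2 fold change -2.27, SE 0.35 and edgeR adjusted p = 0.0085), and Ms4a6b from 657 ± 94.5 to 233 ± 116 CPM (n = 3, log2 fold change -1.49, SE 0.33 and edgeR adjusted p = 0.04). Ms4a3 had a log2 fold change of -5.13 (SE 1.31), from 9 counts in KO Ly6Clo against 230, and was not called (edgeR adjusted p = 0.066). The other 5 were not called either, with log2 fold changes of -1.0 (SE 0.38) for Ms4a7, -0.93 (SE 0.46) for Ms4a6d, -0.91 (SE 0.35) for Ms4a4b, -0.90 (SE 0.31) for Ms4a6c and -0.03 (SE 0.43) for Ms4a4a. The overlap was in Ms4a4a and Ms4a6d, whose KO replicate 1 (117 CPM) exceeded WT Ly6Chi replicates 2 and 3 (103 and 104 CPM).

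Ms4a4c was called in all 17 alternatives here too (adjusted p from 1.1e-08 to 0.037). The Ms4a6b call was lost without any one of WT Ly6Chi replicates 1, 2 and 3 (edgeR adjusted p = 0.13, 0.088 and 0.1), WT Ly6Clo replicates 1, 2 and 3 (0.061, 0.057 and 0.072) or KO replicates 2 and 3 (0.14 and 0.08), and in a fit of the 2 groups compared (0.08). The Ms4a8a call was lost without WT Ly6Chi replicate 1, 2 or 3 (0.074, 0.065 and 0.061) or KO replicate 2 or 3 (0.082 and 0.055). Ms4a3 was called in 3 of the 16 alternatives that kept it. These were DESeq2 (adjusted p = 0.00083), limma-voom (0.031) and the fit without KO replicate 1 (log2 fold change -7.96, edgeR adjusted p = 0.0093). With the replicate block, Ms4a6c (adjusted p = 0.027) and Ms4a6d (0.047) were called. The Ms4a4a log2 fold change turned positive, to 0.11, 0.01, 0.05 and 0.32, without WT Ly6Chi replicate 1 or 3 or KO replicate 2 or 3.

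**Figure D3:**
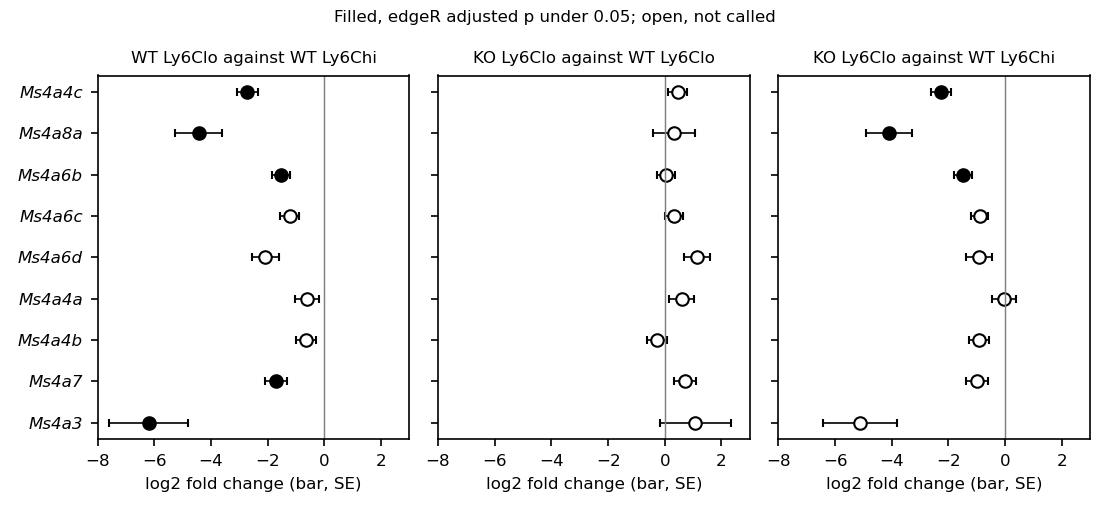
Points are log2 fold changes of the 9 members in the 3 comparisons, bars are SE, and filled points passed edgeR's test at an adjusted p under 0.05. Filled points number 5, 0 and 3 in the left, middle and right panel.

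Of the 35 genes between the outermost Ms4a genes, 22 were tested, 13 of them Ms4a genes, and none of the 9 other genes was called by edgeR in WT Ly6Clo against WT Ly6Chi, a count near the 3.51% called over all genes. Of these 9, 7 had a negative log2 fold change, and Gm10212 (-1.84, SE 0.70) and Gm38275 (-7.25, SE 2.78, at 0 in all WT Ly6Clo libraries) had an unadjusted p under 0.05. AW112010, which lies next to Ms4a8a and is 1 of the 2 with a positive value, was at 30.3 ± 8.05 CPM in WT Ly6Chi and 39.5 ± 3.12 CPM in WT Ly6Clo (n = 3, log2 fold change 0.38, SE 0.46 and edgeR adjusted p = 0.73). Gm8369, between Ms4a6c and Ms4a6b, was at 9.76 ± 1.13 and 7.06 ± 0.498 CPM. Of these 9 neighbours, 6 averaged under 2 CPM in WT Ly6Chi.

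**Figure D4:**
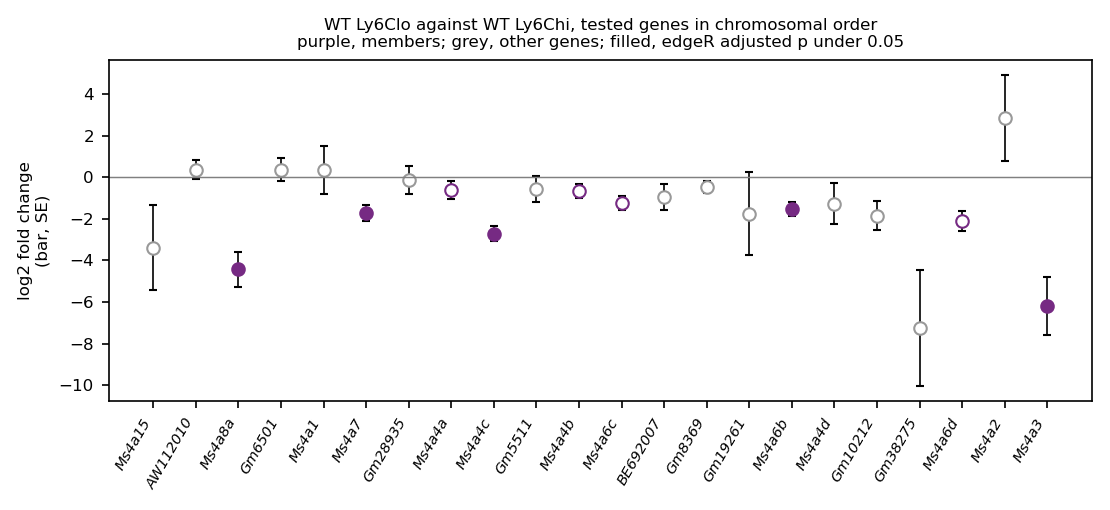
Log2 fold changes of WT Ly6Clo against WT Ly6Chi, with SE bars, are drawn for the 22 tested genes of the Ms4a cluster in chromosomal order, members in purple and other genes in grey, filled where edgeR's adjusted p was under 0.05. The 5 filled points, all under 0, are the members Ms4a8a, Ms4a7, Ms4a4c, Ms4a6b and Ms4a3.

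The other Ms4a genes include Ms4a1, known from B cells, and Ms4a2, known from mast cells and basophils. Of 11 listed, 10 were matched (Ms4a20 was not), 4 were tested, and none was called by edgeR in any of the 3 comparisons (of these 4, unadjusted p was under 0.05 for 0, 1 and 0 in the order above, the 1 being Ms4a15). Ms4a10 was at 0 in all 9 libraries. Ms4a1, the CD20 gene of B cells, was at 1.43, 3.19 and 7.31 CPM in WT Ly6Chi, 1.21, 9.43 and 4.79 CPM in WT Ly6Clo libraries and 0.202, 8.23 and 8.93 CPM in KO Ly6Clo, lowest in each group in replicate 1. The 9 B cell markers summed to 141 CPM in KO replicate 1 and to 405 to 746 CPM in the other libraries.

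Ms4a2, the beta chain of the IgE receptor, was at 0.0537, 0.542 and 0.0613 CPM in WT Ly6Chi, 0, 0.0133 and 4.72 CPM in WT Ly6Clo libraries and 0.357, 1.10 and 2.63 CPM in KO Ly6Clo. It was highest in the libraries where mast cell and basophil markers were highest, WT Ly6Clo replicate 3 (73.3 CPM summed) and KO replicate 3 (85.9 CPM), with the mast cell protease gene Mcpt4 at 0 in all libraries. The match was not close, since the markers summed to 33.2 CPM in WT Ly6Clo replicate 2, where Ms4a2 was at 0.0133 CPM. Ms4a4d was at 1.90 ± 0.672, 0.795 ± 0.703 and 0.736 ± 0.746 CPM (n = 3) in WT Ly6Chi, WT Ly6Clo and KO Ly6Clo, and Ms4a15 at 0.158 ± 0.140, 0.0147 ± 0.00699 and 0.508 ± 0.639 CPM.

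In the Ly6Clo groups Ms4a4b had the library order of the T cell markers and of the NK cell markers. The 10 T cell markers, all of them detected, summed to 66.7, 201 and 127 CPM in WT Ly6Clo libraries and 34.7, 186 and 120 CPM in KO Ly6Clo, in the same order of libraries as Ms4a4b. The 8 NK cell markers summed to 62.9, 250 and 185 CPM and to 17.6, 339 and 84.8 CPM, again in that order. The order was not particular to these lists. The 8 progenitor genes had it too (7.99, 84.6 and 59.9, and 21.9, 147 and 34.5 CPM), as did the 10 nonclassical monocyte genes (11294, 20667 and 14754, and 8361, 14600 and 13100 CPM). In WT Ly6Chi the T cell marker sums were 109, 165 and 193 CPM, with Ms4a4b highest in replicate 1, the library lowest in T cell markers. The part of T cell or NK cell RNA in the Ms4a4b level was not tested. Red pulp macrophage markers, 11 genes, summed to 399 to 482 CPM in WT Ly6Chi, 598 to 801 in WT Ly6Clo libraries and 586 to 740 in KO Ly6Clo. Adgre1 (265 ± 27.1 CPM in WT Ly6Chi and 446 ± 53.1 in WT Ly6Clo, n = 3) and Hmox1 (101 ± 21.8 and 138 ± 14.5) made up most of the sum, while Mrc1 (12.6 ± 6.24 and 5.0 ± 1.10) and Cd163 (9.94 ± 5.36 and 2.10 ± 1.95) were lower in WT Ly6Clo on average, as Ms4a7 was.

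**Figure D5:**
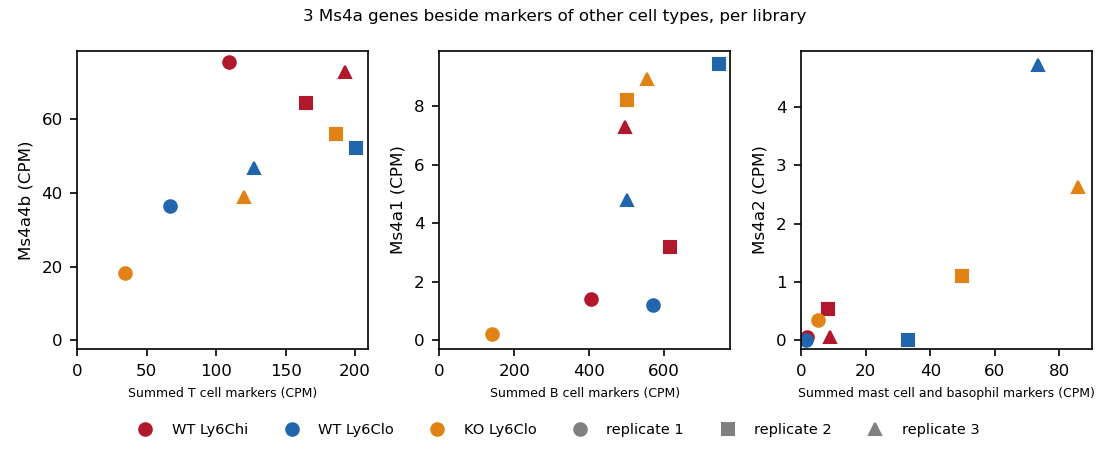
For each of the 9 libraries, Ms4a4b, Ms4a1 and Ms4a2 (CPM) are plotted against the summed CPM of T cell, B cell, and mast cell and basophil markers, with color for the group and symbol for the replicate number. Within each Ly6Clo group, but not across both, Ms4a4b has the library order of the T cell sum (34.7 to 201 CPM). Ms4a2 is highest in the 2 libraries with mast cell and basophil sums of 73.3 and 85.9 CPM.

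The MS4A-like genes Tmem176a and Tmem176b, relatives with 4 membrane spans that lie outside the cluster, fell between the subsets. Their coordinates overlap on opposite strands (chr6:48840919-48847071, plus, and chr6:48833818-48841496, minus). Strand use in counting is not stated, so the assignment of reads from the shared stretch is uncertain. Tmem176b was at 162, 213 and 209 CPM in WT Ly6Chi, 38.0, 26.0 and 29.3 CPM in WT Ly6Clo libraries and 15.9, 19.8 and 6.49 CPM in KO Ly6Clo. The 3 groups did not overlap, and edgeR called the differences of both Ly6Clo groups from WT Ly6Chi (log2 fold change -2.65, SE 0.38, adjusted p = 0.0082 in the WT, and -3.79, SE 0.40, adjusted p = 0.0012 in the KO). Tmem176a was at 38.0, 65.0 and 72.4, at 11.1, 13.4 and 7.83, and at 4.16, 7.54 and 3.95 CPM, with log2 fold changes of -2.44 (SE 0.37 and edgeR adjusted p = 0.011) and -3.48 (SE 0.39, adjusted p = 0.0017). The Tmem176a call in the WT was lost without WT Ly6Clo replicate 1 or 3 (adjusted p = 0.055 each). Between KO and WT Ly6Clo both were lower in KO in every library but not called, with log2 fold changes of -1.04 (SE 0.36, adjusted p = 0.64) for Tmem176a and -1.14 (SE 0.36, adjusted p = 0.6) for Tmem176b.

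Of 8 described partners of Ms4a proteins, 7 were tested, and none was called in the first 2 comparisons by edgeR over all 9 libraries (unadjusted p was under 0.05 for 2 and 0 of them). In the first comparison, Trem2 was called by DESeq2 (adjusted p = 0.029) and in the fit of the 2 groups compared (0.046), and Cdkn3 in that fit (0.026) and without KO replicate 1 (0.023). Clec7a, which encodes Dectin-1, was at 506 ± 92.3 CPM in WT Ly6Chi, 285 ± 157 CPM in WT Ly6Clo libraries and 197 ± 43.8 CPM in KO Ly6Clo (n = 3). In KO Ly6Clo against WT Ly6Chi it was not called (edgeR adjusted p = 0.079), but was with a filter of 1 CPM in 3 libraries (0.047), by DESeq2 (0.0054), in the fit of the 2 groups compared (0.028), with the replicate block (0.024) and without WT Ly6Clo replicate 2 (0.024). Trem2, a lipid-sensing receptor of macrophages, was at 73.6, 50.9 and 39.5, at 25.0, 12.2 and 12.7, and at 3.83, 3.64 and 15.4 CPM. It was called lower in KO Ly6Clo against WT Ly6Chi (log2 fold change -2.84, SE 0.62 and edgeR adjusted p = 0.036), a call lost without any one of WT Ly6Chi replicates 1, 2 and 3 (0.11, 0.093 and 0.07), WT Ly6Clo replicates 2 and 3 (0.052 and 0.063) or KO replicates 1 and 2 (0.072 and 0.1), with the term for the run of library numbers (0.052) and in a fit of the 2 groups compared (0.065).

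The signalling adaptors were high in all groups. Fcer1g, the shared gamma chain of Fc receptors, was at 1192 ± 84.0, 1490 ± 152 and 1510 ± 402 CPM, and Tyrobp, the adaptor of Trem2, had mean levels of 1653, 1579 and 1344 CPM (n = 3 each). Cdkn3, the partner of Ms4a3, had mean levels of 7.48, 0.966 and 2.58 CPM, lower in each WT Ly6Clo library than in any WT Ly6Chi library and not called (log2 fold change -2.95, SE 1.39 and edgeR adjusted p = 0.3). Cdk2, on which that phosphatase acts, had mean levels of 49.7, 48.0 and 52.0 CPM, and Tnfrsf18, which encodes GITR and is described with Ms4a4b in T cells, 3.24, 3.33 and 4.05 CPM.

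Genes with the most alike profiles were named by the root mean square difference (RMS) of log2(CPM + 1), each profile centred on its own mean over the 9 libraries, among 9410 genes. Ms4a6b was most like Mndal (RMS 0.15), an interferon-inducible gene, and Emb (0.18), an immunoglobulin-superfamily membrane protein gene. Mndal was at 222 ± 26.0, 64.9 ± 13.9 and 76.9 ± 30.2 CPM in WT Ly6Chi, WT Ly6Clo and KO Ly6Clo (n = 3). Ms4a4c was most like Tgfbi (0.22), an extracellular matrix protein gene at 1068 ± 30.1, 189 ± 26.6 and 216 ± 68.1 CPM, and Cav2 (0.26). Ms4a6c was most like Prkra (0.15) and Casp4 (0.19), an inflammatory caspase gene.

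Ms4a4b was most like Tbc1d22a (0.17) and the T cell receptor subunit gene Cd3d (0.20), which was at 9.72 ± 1.46, 6.80 ± 1.62 and 5.60 ± 2.39 CPM (n = 3). Ms4a4a was most like Nipa2 (0.25) and Gyg (0.26), Ms4a7 like Alas1 (0.24), the first enzyme of haem synthesis, and Tspan3 (0.25), and Ms4a6d like Scamp1 (0.31) and Snx7 (0.35). The nearest genes to Ms4a8a, Slfn1 (0.50) and Cd300lg (0.52), were less close than those of the other 7 members compared. Likeness is a description over 9 libraries that share depth and sort, and carries no test.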

How the data were processed

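RNA-seq of 9 libraries (3 groups of 3, with groups and replicate numbers read from sample titles) was analysed from 1 table of 55487 genes per library. Per the file headers, the tables hold counts, CPM, FPKM and TPM. The deposited counts are whole reads per gene, not normalized, and the CPM, FPKM and TPM deposited beside them equal values recomputed from the counts and gene lengths within 7e-11. Only TPM was used of these, to order genes by level. The submitters' processing notes name STAR 2.5.1a, featureCounts 1.4.6-p5, Salmon 0.8.2 and GRCm38, without saying whether strand was used. Symbols came from GENCODE M21 (99.38% of IDs).

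Counts were tested in R 4.3.3 with edgeR (4.0.16). Genes were filtered with filterByExpr (minimum count 10), which left 18341, libraries were scaled by TMM, and the model had 1 term per group over all 9 libraries, with the quasi-likelihood test and Benjamini-Hochberg adjustment over all genes. A gene was called at an adjusted p under 0.05 (common dispersion 0.448). The SE was taken from the F statistic. The procedure was tested on simulated data. Library totals of 48141590 to 173703361 counts set a floor of 3 counts, which covers counting error only. The 17 alternatives were DESeq2 (1.42.0), limma-voom (limma 3.58.1), RLE scaling, no filter or one of at least 1 CPM in 3 libraries, a fit without the group not compared, the replicate block, a term for the run of library numbers, and each of the 9 libraries left out in turn. Filter and scaling were redone when libraries were left out.

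Members, gene lists and tests were chosen with earlier results of these data known. All 9 members are named in every comparison, and of the other Ms4a genes, relatives and partners each gene that passed the filter. For members of at least 5 CPM in their highest group, the 2 genes of the most alike profile are named. Of marker lists, sums are given. The ratio of Ms4a4c to Ms4a4b was added after the values were seen.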

Additional observations from a re-analysis of the deposited data

How the results depend on the processing

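The number of members called in WT Ly6Clo against WT Ly6Chi (5) was 5 to 7 under the 8 alternatives that keep all libraries or the libraries compared, 6 with the replicate block, and 1 to 7 when single libraries were left out. For KO Ly6Clo against WT Ly6Chi it was 3, 5 with the replicate block and 1 to 4 when single libraries were left out, and for KO against WT Ly6Clo it was 0 throughout. Ms4a3 was among the members called in KO Ly6Clo against WT Ly6Chi by DESeq2 and limma-voom. Over all genes, WT Ly6Clo against WT Ly6Chi gave 643 calls, 1960 by DESeq2 and 239 to 847 without single libraries, and KO Ly6Clo against WT Ly6Chi gave 829, 1951 and 379 to 818. KO against WT Ly6Clo gave 13 calls over all genes, 54 with no filter, 27 with the filter of 1 CPM in 3 libraries, 277 by DESeq2, 2 to 21 without single libraries, 13 with the replicate block and 0 in the edgeR fit of the 2 groups, where 859 genes had an unadjusted p under 0.05.

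For KO against WT Ly6Clo the log2 fold change turned sign in Ms4a3 (limma-voom -0.34, without KO replicate 1 -1.77), Ms4a6b (limma-voom -0.04, replicate block -0.04, run of library numbers -0.03, without WT Ly6Clo replicate 2 -0.06 or 3 -0.01, without KO replicate 1 -0.42) and Ms4a8a (limma-voom -0.14, replicate block -0.02, without KO replicate 1 -1.14), and without KO replicate 1 in Ms4a4a (-0.04), Ms4a4b (0.06) and Ms4a4c (-0.01). Over single libraries left out these ranged to 1.61 (Ms4a3), 0.94 (Ms4a4a), -0.68 (Ms4a4b), 0.71 (Ms4a4c) and 0.87 (Ms4a8a) at the other end. For KO Ly6Clo against WT Ly6Chi that of Ms4a4a became 0.11 or 0.01 without WT Ly6Chi replicate 1 or 3 and 0.05 or 0.32 without KO replicate 2 or 3, and -0.66 without KO replicate 1. For KO against WT Ly6Clo, that of Cdkn3 was -0.66 by limma-voom and that of Clec7a ranged from -0.84 to 0.01 over single libraries left out. None of these values was called. The causes were not tested. Of the values for single genes under the alternatives, 639 kept direction and call, 73 lost the call, 29 gained it and 20 changed sign.

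Same-numbered libraries correlated in their deviations from the group means by 0 to 0.28, not all above 0.1, so the numbers were not taken to pair the samples. Depth limits Ms4a3, with 5 counts in WT Ly6Clo and 9 in KO Ly6Clo. Near-identical stretches and antisense overlap limit Ms4a6c and, less, Ms4a4c.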
